A study of Homo sapiens with 12 samples.

Results

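The 9 genes described here are 6 transcription factors that can drive epithelial-mesenchymal transition (EMT), SNAI1, SNAI2, TWIST1, TWIST2, ZEB1 and ZEB2, and 3 markers of the mesenchymal state, VIM, CDH2 and CDH11. They were chosen by name, with earlier results of these data known. Their rows were taken by Entrez gene ID among the 23459 genes of the deposited count table. All 9 were found and all 9 passed the filter on low counts that left 14775 genes for testing. CDH11 passed it through the vector groups alone, since the 6 libraries that reached the cutoff of 0.442 CPM (counts scaled to library size) were the vector libraries. The other 8 reached it in all 12 libraries.

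The data are RNA sequencing of MCF10A, an immortalised but non-tumorigenic line of human breast epithelium, with a YAP5SA allele that doxycycline switches on. YAP5SA is a form of the coactivator YAP that the Hippo kinases cannot inactivate. The cells were infected with a vector that expresses JUN, the AP-1 subunit, or with an empty vector, and received doxycycline (Dox, 100 ng/ml) or the solvent ethanol (EtOH). This gave 4 groups of 3 libraries, called vector EtOH and vector Dox for the empty vector, and JUN EtOH and JUN Dox for the JUN vector. Every group carried the inducible allele and had been infected, and all were grown in medium with horse serum, insulin, hydrocortisone, cholera toxin and EGF. No group without the allele received Dox, so induction of YAP5SA and Dox itself cannot be told apart. The study set out to learn what JUN does to genes controlled by YAP, and the EMT genes were examined here in the same 4 groups.

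In EMT, epithelial cells loosen their junctions, lose E-cadherin (CDH1) and take up vimentin filaments and N-cadherin (CDH2). SNAI and ZEB proteins are zinc finger repressors that bind E-boxes, the short motif CAGGTG among them, in the promoters of CDH1 and other epithelial genes. TWIST proteins are basic helix-loop-helix factors. The miR-200 family and miR-205 repress ZEB1 and ZEB2, and the ZEB proteins in turn repress the miR-200 genes. Basal mammary cells are known to express SNAI2 and vimentin without having undergone EMT.

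The promoters of ZEB1, ZEB2 and VIM are shown because these genes were all higher in JUN cells than in vector cells, and that of TWIST2 because it was lower in JUN EtOH. Each runs from 250 bases before to 50 bases after the RefSeq start of the main transcript, 5′ to 3′ on the gene's strand, on GRCh38.p14. Capitals mark matches on either strand to the AP-1 motif TGANTCA, the TEAD motif GGAATG or the E-box CAGGTG, which do not overlap one another here.
ZEB1, chr10:31318966-31319265, plus strand: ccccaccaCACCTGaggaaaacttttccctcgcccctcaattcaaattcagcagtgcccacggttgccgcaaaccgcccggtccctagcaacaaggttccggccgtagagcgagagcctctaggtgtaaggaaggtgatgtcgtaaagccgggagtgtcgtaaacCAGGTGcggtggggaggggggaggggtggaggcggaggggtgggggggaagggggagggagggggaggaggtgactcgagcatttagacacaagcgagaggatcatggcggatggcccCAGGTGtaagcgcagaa
ZEB2, chr2:144520070-144520369, minus strand: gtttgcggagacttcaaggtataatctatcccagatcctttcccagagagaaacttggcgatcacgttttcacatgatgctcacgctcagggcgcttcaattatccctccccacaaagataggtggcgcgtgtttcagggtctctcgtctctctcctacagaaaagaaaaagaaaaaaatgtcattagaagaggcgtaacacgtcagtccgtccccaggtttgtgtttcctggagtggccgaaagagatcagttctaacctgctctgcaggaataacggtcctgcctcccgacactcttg
VIM, chr10:17227991-17228290, plus strand: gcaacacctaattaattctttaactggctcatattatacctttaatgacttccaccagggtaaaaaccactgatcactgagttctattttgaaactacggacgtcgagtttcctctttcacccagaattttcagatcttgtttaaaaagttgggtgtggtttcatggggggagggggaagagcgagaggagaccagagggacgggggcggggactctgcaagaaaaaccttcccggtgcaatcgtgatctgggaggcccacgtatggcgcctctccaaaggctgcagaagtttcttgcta
TWIST2, chr2:238847835-238848134, plus strand: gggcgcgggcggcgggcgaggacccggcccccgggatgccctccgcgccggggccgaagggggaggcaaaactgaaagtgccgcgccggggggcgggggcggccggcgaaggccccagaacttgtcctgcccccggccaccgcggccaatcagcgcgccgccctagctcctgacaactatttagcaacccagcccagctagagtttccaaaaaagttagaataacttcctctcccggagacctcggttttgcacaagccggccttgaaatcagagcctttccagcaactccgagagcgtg

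The ZEB1 window held 3 matches to CAGGTG, starting 242 and 85 bases before and 33 bases after the start, and none of the other motifs. The windows of ZEB2, VIM and TWIST2 held no match to any of the 3 motifs. Of 35116 promoter windows of this length in the RefSeq table, 20.6% held CAGGTG, 14.0% held GGAATG and 7.71% held TGANTCA. Only these letters in these windows were searched, and a match is no evidence of binding. SNAI2 was left out of this search. Of the other genes, 5 had windows in the RefSeq table, with more than 1 window for ZEB1 and CDH2. Of the windows not shown, 1 at another ZEB1 start, 799 bases from the main one, held a GGAATG and a CAGGTG, and 1 at another CDH2 start held the TGANTCA match, 102 bases before that start. The remaining windows held no match.

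Total counts were 18594867 to 28993487 per library, and a count of 3 corresponded to 0.107 to 0.15 CPM. JUN itself had 47.6 ± 10.5 CPM in vector EtOH, 190 ± 4.15 CPM in vector Dox, 1278 ± 187 CPM in JUN EtOH and 1248 ± 92.2 CPM in JUN Dox (SD, n = 3), so the labels of the JUN vector fit. JUN thus rose 3.98-fold on induction in vector cells as well (edgeR adjusted p 3.09e-07). YAP1 was not called on induction (log2 fold changes of 0.40 in vector and 0.26 in JUN cells, edgeR adjusted p 0.0819 and 0.308, with overlapping groups in JUN cells), so the count of YAP1 does not settle the labels of induction. Of the basal epithelial markers fixed for the check, 10 of 10 were detected and none was at 0, with summed levels between 6172 and 13359 CPM, which fits the labelled cell type. Fibroblast markers summed to 115 to 169 CPM in every group, mostly from PDGFRA, while COL1A2 and THY1 were at 0 in vector EtOH, JUN EtOH and JUN Dox. Of the fibroblast markers, 3 of the 6 tested, DCN, LUM and FAP, were higher in JUN cells without and with induction. The shares of all genes called higher were 20.1% and 18.4%. Of the leukocyte markers CD3E was at 0 in every library and PTPRC and ITGAM had at most 7 reads, whereas CSF1R had a mean of 354 to 455 CPM in the 4 groups. In bulk RNA a change in the share of cells of a kind cannot be told apart from a change in RNA per cell. Within JUN Dox, replicates 1 and 3 lay on opposite sides of a trend with the GC content of genes. Their deviations from the group mean correlated with GC content across genes at -0.365 and 0.369. In JUN EtOH replicates 1 and 3 had -0.213 and 0.229.

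The comparison of JUN EtOH with vector EtOH asked what JUN changes without induction. JUN cells had more SNAI2, TWIST1, ZEB1, ZEB2, VIM and CDH2 and less SNAI1 and TWIST2. Of the 8 genes other than CDH11, 8 were called by edgeR's quasi-likelihood test at a Benjamini-Hochberg adjusted p under 0.05, against 39% of all genes tested, and 6 of them were higher, against 20.1%, with 2 lower, against 18.9%. In each of the 8 the groups did not overlap, against 57.8% of all genes. The median log2 fold change of all tested genes was 0.0006. With induction, JUN Dox was compared with vector Dox. In this comparison 5 of the 8 genes other than CDH11 were called (35.6% of all genes), with SNAI2, ZEB1, ZEB2 and VIM higher and SNAI1 lower. CDH11 is left out of the counts of both JUN comparisons, since the vector groups, where it is higher, let it pass the filter. Of all genes, 18.4% were called higher there and 17.2% lower. The groups did not overlap for 5 of the 8 genes, against 43.4% of all genes.

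YAP5SA induction in vector cells was followed by lower SNAI1, SNAI2 and VIM and by higher CDH2. These are 4 of 9 genes called, against 30.1% of all genes, with 3 of 9 called lower, against 14.4%, and 1 higher, against 15.6%. The groups did not overlap for 5 of the 9, against 43.9% of all genes. In JUN cells induction was followed by a call for 1 of the 9, lower TWIST1, against 21.4% of all genes (11.2% higher and 10.3% lower). The groups did not overlap for 5 of the 9, against 39.3%. The induction contrast in vector cells shares its vector EtOH libraries with the first JUN contrast, so the values of the contrasts are given side by side and not as independent results.

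**Figure D1:**
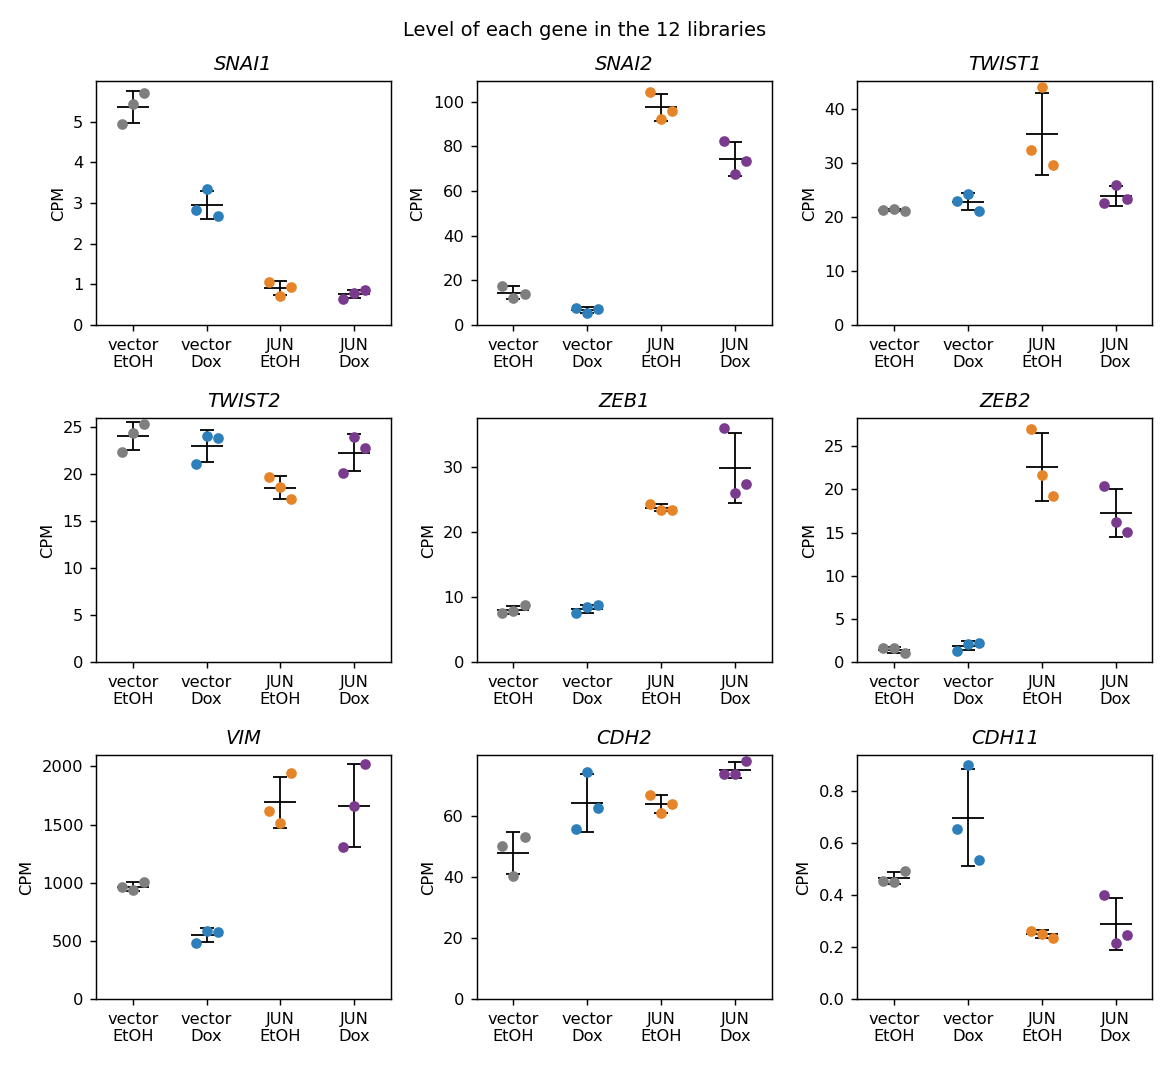
Level of each of the 9 genes in CPM (vertical axes, from 0) in the 3 libraries of each group. Points are libraries, long bars means and short bars the SD. SNAI2, ZEB1 and ZEB2 sit far higher in both JUN groups than in both vector groups, while SNAI1 sits between 0.652 and 1.06 CPM in JUN cells against 2.68 to 5.70 CPM in vector cells.

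SNAI1 and SNAI2 (Snail and Slug) are closely related repressors, yet they moved in opposite directions with JUN. SNAI1 (Entrez gene 6615) lies on GRCh37 chromosome 20, 48599517 to 48605423, on the plus strand, and the positions of the other genes are on the same build. It had 4.94, 5.44 and 5.70 CPM in vector EtOH, 2.83, 3.33 and 2.68 CPM in vector Dox, 1.06, 0.716 and 0.938 CPM in JUN EtOH, and 0.652, 0.778 and 0.852 CPM in JUN Dox. All 6 JUN libraries lay below all 6 vector libraries. SNAI1 was lower by 5.91-fold in JUN EtOH than in vector EtOH (log2 fold change -2.56, SE 0.21, edgeR adjusted p 4e-07). It fell by 0.86 on the log2 scale on induction in vector cells (SE 0.18, edgeR adjusted p 0.0024). In JUN cells, where 13 to 24 reads per library were counted, the induction value was -0.23 with a 95% interval from -0.77 to 0.31.

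SNAI2 (Entrez gene 6591, chromosome 8, 49830157 to 49834299, minus strand) had 17.6, 12.2 and 13.8 CPM in vector EtOH and 7.45, 5.41 and 7.39 CPM in vector Dox. In JUN EtOH it had 104, 92.2 and 95.9 CPM, and in JUN Dox 82.5, 67.4 and 73.3 CPM. The 4 groups did not overlap, in the order vector Dox, vector EtOH, JUN Dox and JUN EtOH. SNAI2 rose 6.69-fold with JUN without induction (log2 2.74, SE 0.15, edgeR adjusted p 6.75e-09). With induction JUN cells had 11-fold more SNAI2 than vector cells (log2 3.46, SE 0.16, edgeR adjusted p 9.44e-10). Induction lowered SNAI2 by 2.15-fold in vector cells (log2 -1.11, SE 0.16, edgeR adjusted p 8.28e-05). In JUN cells the induction value was -0.39 (SE 0.14, edgeR adjusted p 0.0541), which missed the threshold here but passed it under DESeq2 (adjusted p 0.0255) and under most of the other settings tried.

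Between JUN and vector cells the 2 TWIST genes had smaller fold changes than SNAI2 and ZEB2, without and with induction. TWIST1 (Entrez gene 7291, chromosome 7, 19060614 to 19157259, minus strand) had 21.2, 21.5 and 21.2 CPM in vector EtOH, 23.0, 24.2 and 21.1 CPM in vector Dox, 32.4, 44 and 29.6 CPM in JUN EtOH, and 22.6, 26.01 and 23.3 CPM in JUN Dox. The JUN EtOH libraries stood above the other 9. TWIST1 rose by 0.73 with JUN without induction (log2, SE 0.13, edgeR adjusted p 0.000636) and in JUN cells it fell by 0.56 on induction (SE 0.13, edgeR adjusted p 0.00669). With induction, JUN and vector cells differed by 0.071 with an interval from -0.21 to 0.35 (edgeR adjusted p 0.703).

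TWIST2 (Entrez gene 117581, chromosome 2, 239756673 to 239832230, plus strand) was the other way round. It had 22.4, 24.4 and 25.3 CPM in vector EtOH, 21.1, 24.1 and 23.9 CPM in vector Dox, 19.8, 18.6 and 17.4 CPM in JUN EtOH, and 20.2, 23.9 and 22.8 CPM in JUN Dox. Here the JUN EtOH libraries were below the other 9. TWIST2 fell by 0.37 with JUN without induction (log2, SE 0.11, edgeR adjusted p 0.0131), a call that was lost without vector EtOH replicate 3 (adjusted p 0.0596) or JUN EtOH replicate 3 (0.0527). On induction in JUN cells its value was 0.27 (SE 0.11, edgeR adjusted p 0.0934), with a call without JUN Dox replicate 1 (0.0467).

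ZEB1 and ZEB2, which repress CDH1 and the miR-200 genes, were both higher in JUN cells. ZEB1 (Entrez gene 6935, chromosome 10, 31607424 to 31818742, plus strand) had 7.49, 7.83 and 8.75 CPM in vector EtOH, 7.50, 8.43 and 8.71 CPM in vector Dox, 24.3, 23.4 and 23.4 CPM in JUN EtOH, and 36.01, 26.01 and 27.4 CPM in JUN Dox. The vector groups overlapped each other and stayed below every JUN library. JUN raised ZEB1 2.96-fold without induction (log2 1.56, SE 0.13, edgeR adjusted p 5.75e-07) and 3.62-fold with it (log2 1.86, SE 0.13, edgeR adjusted p 9.79e-08). On induction in JUN cells the value was 0.33 (SE 0.12, edgeR adjusted p 0.0776), which passed with a term for the GC trend of the libraries (adjusted p 0.0326). Reads of ZEB1 and of the antisense gene ZEB1-AS1 cannot be separated where the genes overlap, and the mean counts were 401 and 42.9.

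ZEB2 (Entrez gene 9839, chromosome 2, 145121931 to 145278624, minus strand) had the largest log2 fold change of the 9 genes with JUN without induction. It had 1.60, 1.65 and 1.08 CPM in vector EtOH, 1.35, 2.12 and 2.27 CPM in vector Dox, 26.9, 21.7 and 19.2 CPM in JUN EtOH, and 20.4, 16.2 and 15.1 CPM in JUN Dox. All JUN libraries held at least 375 reads of ZEB2, and all vector libraries at most 55. ZEB2 was 15.6-fold higher in JUN EtOH than in vector EtOH (log2 3.97, SE 0.22, edgeR adjusted p 8.68e-09) and 8.95-fold higher in JUN Dox than in vector Dox (log2 3.16, SE 0.21, edgeR adjusted p 4.61e-08). Induction gave values of 0.41 in vector cells (edgeR adjusted p 0.258) and -0.40 in JUN cells (edgeR adjusted p 0.121). In JUN cells it was called without JUN Dox replicate 1 (adjusted p 0.0477) and with the GC term (0.0498).

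miR-205-5p is shown because it is a known repressor of both ZEB genes and because its host transcript MIR205HG was measured. Its mature sequence in RefSeq (GRCh38.p14, chr1:209432166-209432187, plus strand), with the seed in capitals, is as follows.
hsa-miR-205-5p: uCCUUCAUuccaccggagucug

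MIR205HG had 66.8, 64.4 and 65.0 CPM in vector EtOH and 111, 113 and 107 CPM in vector Dox. It had 76.6, 91.8 and 79.5 CPM in JUN EtOH and 82.9, 104 and 81.2 CPM in JUN Dox. It rose by 0.76 on induction in vector cells (log2, SE 0.11, edgeR adjusted p 7.84e-05). With JUN it was higher by 0.34 without induction (edgeR adjusted p 0.0203) and lower by a log2 fold change of -0.31 with induction (edgeR adjusted p 0.0333). Over the alternatives these adjusted p values reached 0.106 and 0.111. The first call was lost without vector EtOH replicate 2 or 3 or JUN EtOH replicate 2, and the second without vector EtOH replicate 3, any 1 of the vector Dox libraries, or JUN Dox replicate 1 or 3. ZEB1 and ZEB2 were higher with JUN both without induction, where the host transcript was higher, and with induction, where it was lower. A link between the host transcript and the ZEB genes was not tested. The mature miRNA was not measured in these poly(A) libraries.

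VIM encodes vimentin, the intermediate filament protein of mesenchymal and basal mammary cells. VIM (Entrez gene 7431, chromosome 10, 17270240 to 17279592, plus strand) had 960, 938 and 1008 CPM in vector EtOH, 482, 589 and 581 CPM in vector Dox, 1615, 1517 and 1939 CPM in JUN EtOH, and 1307, 1663 and 2017 CPM in JUN Dox. The vector groups did not overlap each other, and both lay below every JUN library, while the JUN groups overlapped. VIM fell 1.76-fold on induction in vector cells (log2 -0.82, SE 0.15, edgeR adjusted p 0.00103). JUN raised it 1.74-fold without induction (log2 0.80, SE 0.15, edgeR adjusted p 0.001) and 3.02-fold with induction (log2 1.59, SE 0.16, edgeR adjusted p 2.46e-06). In JUN cells the induction value was -0.024, with an interval from -0.35 to 0.30. The basal markers of the cell type check moved with SNAI2 and VIM in part. Of the 10, 0 were higher and 6 lower on induction in vector cells (median -0.49), 4 were higher and 1 lower with JUN without induction, and 6 were higher and 2 lower (CDH1 and EPCAM) with JUN with induction (median 0.54). On induction in JUN cells 0 were higher and 4 lower. Of all genes, 15.6% were higher and 14.4% lower on induction in vector cells, and 11.2% and 10.3% in JUN cells. With JUN the shares were 20.1% and 18.9% without and 18.4% and 17.2% with induction. The part of the basal markers in the results of SNAI2 and VIM was not tested.

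The cadherin CDH2 (N-cadherin) links neighbouring mesenchymal and neural cells. CDH2 (Entrez gene 1000, chromosome 18, 25512843 to 25757910, minus strand) had 50.3, 40.2 and 53.2 CPM in vector EtOH, 55.6, 74.3 and 62.7 CPM in vector Dox, 66.9, 60.8 and 63.8 CPM in JUN EtOH, and 73.6, 73.6 and 77.9 CPM in JUN Dox. The vector EtOH libraries were below the other 9. CDH2 was higher by 0.42 on induction in vector cells (log2, SE 0.12, edgeR adjusted p 0.0156) and by 0.41 with JUN without induction (SE 0.12, edgeR adjusted p 0.0144). The first call was lost without vector EtOH replicate 2 (adjusted p 0.0876), without vector Dox replicate 2 (0.0826) and in a fit to the compared libraries alone (0.0688). The second call was lost without vector EtOH replicate 2 (0.0758) or JUN EtOH replicate 1 (0.0598). With induction, JUN cells differed from vector cells by 0.22 (edgeR adjusted p 0.154), with a call without vector Dox replicate 2 (0.0349).

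CDH11 (cadherin-11 of fibroblasts and osteoblasts, Entrez gene 1009, chromosome 16, 64977656 to 65160015, minus strand) was nearly absent, with 5 to 20 reads per library. It had 0.456, 0.449 and 0.493 CPM in vector EtOH and 0.654, 0.901 and 0.537 CPM in vector Dox. In JUN EtOH it had 0.264, 0.253 and 0.235 CPM, and in JUN Dox 0.401, 0.216 and 0.249 CPM. All JUN libraries lay below all vector libraries. The fitted log2 fold changes of JUN against vector cells were -0.88 without and -1.28 with induction. They are given as a description, since CDH11 entered the test through the vector groups, where it is higher.

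**Figure D2:**
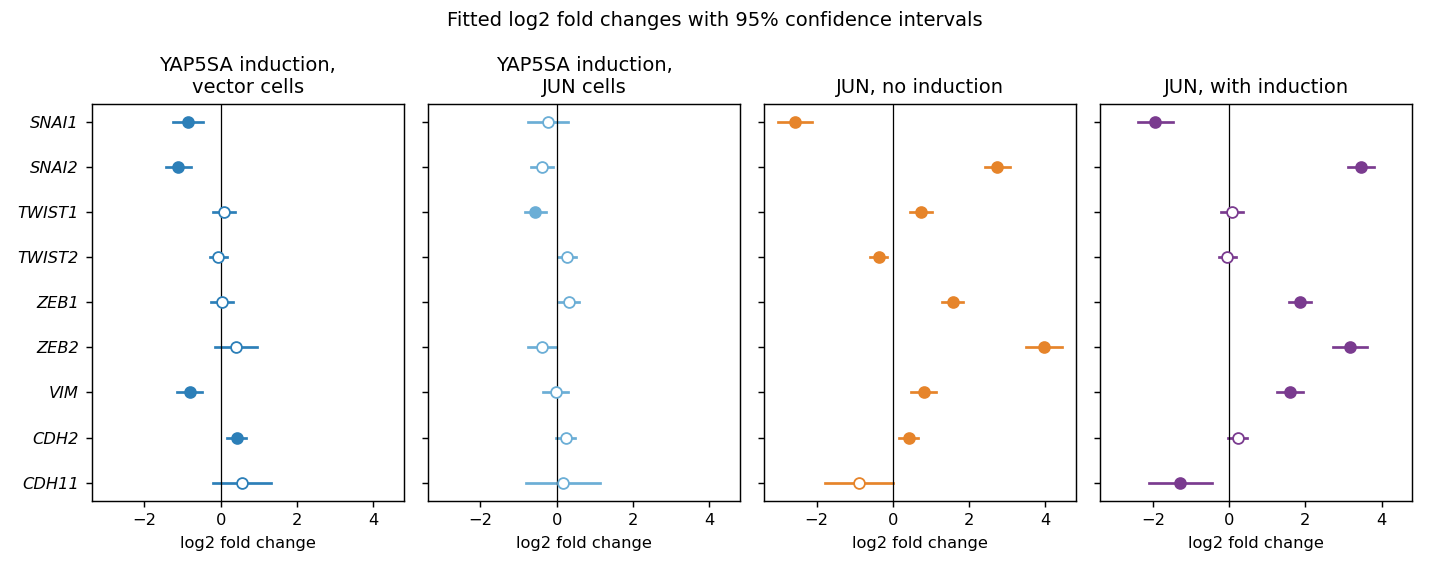
Fitted log2 fold changes (horizontal axes) of the 9 genes in the 4 pairwise comparisons, with 95% confidence intervals as lines. Filled points passed an adjusted p under 0.05 and open points did not, and the CDH11 points of the JUN comparisons are a description. With JUN the values spread from -2.56 for SNAI1 to 3.97 for ZEB2 without induction, while in JUN cells the induction values stay between -0.56 and 0.33.

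The interaction subtracts the log2 induction of vector cells from that of JUN cells, and asks whether the response to induction differed between them. JUN itself rose 3.98-fold on induction in vector cells, while its log2 value in JUN cells was -0.035. Its own interaction was -2.03 (edgeR adjusted p 0.000133), so the response of vector cells includes a rise of JUN. By edgeR 0 of the 9 genes were called, against 1.12% of all genes (0.291% higher and 0.826% lower), while 5 had an unadjusted p under 0.05 and DESeq2 called 2. VIM had an interaction of 0.79 (SE 0.22, edgeR adjusted p 0.12), since it fell in vector cells and had a value near 0 in JUN cells. DESeq2 called it (adjusted p 0.0156), and edgeR called it with the GC term (0.0115) and without JUN Dox replicate 1 (0.0174). SNAI2 had 0.72 (SE 0.21, edgeR adjusted p 0.141), with a DESeq2 adjusted p of 0.0445. TWIST1 had -0.66 (SE 0.19, edgeR adjusted p 0.135). In the fit to all libraries, therefore, the call of TWIST1 in JUN cells and those of SNAI2 and VIM in vector cells were not shown to differ from the response of the other cells, and for SNAI2 and VIM this depended on the setting.

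Levels were compared between genes per kb of exon (all exons of the annotated gene joined), although the counts also take in intron reads, whose share was not measured. In vector EtOH, VIM led with 187 ± 6.93 CPM per kb, followed by TWIST2 (14.2 ± 0.896), TWIST1 (10.7 ± 0.103), CDH2 (5.58 ± 0.795), SNAI2 (4.42 ± 0.85), SNAI1 (3.14 ± 0.225), ZEB1 (0.927 ± 0.0752), ZEB2 (0.0551 ± 0.0121) and CDH11 (0.0351 ± 0.0018 CPM per kb; SD, n = 3). CDH2 and SNAI2 were neighbours within their SDs there. In JUN EtOH, SNAI2 moved to the second place with 29.7 ± 1.89 CPM per kb and SNAI1 to the eighth with 0.53 ± 0.101 CPM per kb, below ZEB2 (0.865 ± 0.15). Per kb of the whole gene span the order of these last 2 turned in JUN EtOH, with 0.153 CPM per kb for SNAI1 and 0.144 for ZEB2. VIM was first and CDH11 last in every group. In vector Dox the pairs SNAI2 and SNAI1, and ZEB2 and CDH11, lay within their SDs, as did TWIST2 and TWIST1 in JUN Dox. The order in vector EtOH was the same per kb of the canonical transcript. Per kb of the whole gene span, the order in vector EtOH began with VIM, SNAI2, SNAI1 and TWIST2.

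Within a library, the 2 members of a pair can be set against each other per kb of their canonical transcripts, as a description with no test. SNAI2 stood at 1.75 to 2.79 times SNAI1 in vector EtOH and 1.27 to 2.15 times in vector Dox. In JUN EtOH the ratio was 77.2 to 101 and in JUN Dox 67.3 to 99.0. Per kb of joined exons the vector Dox ratio of SNAI2 to SNAI1 was 0.843 to 1.43, so that the order in vector Dox depends on the length used. ZEB2 over ZEB1 was 0.0789 to 0.137 in vector EtOH, 0.115 to 0.167 in vector Dox, 0.527 to 0.709 in JUN EtOH and 0.354 to 0.399 in JUN Dox, so ZEB1 stayed above ZEB2 in all 12 libraries at this length. Per kb of the whole gene span, ZEB2 was above ZEB1 in the JUN EtOH libraries (ratios of 1.11 to 1.49) and below it in the other 9, so that the order in JUN EtOH depends on the length used. CDH2 over CDH1 was 0.398 to 0.490 in vector EtOH, 0.569 to 0.623 in vector Dox and 0.595 to 0.702 in JUN EtOH, and passed 1 in JUN Dox, at 1.28 to 1.74. On joined exons in place of the canonical transcript the JUN Dox ratio of CDH2 to CDH1 was 0.753 to 1.03. Per kb of the whole gene span it was 0.427 to 0.581, below 1. The crossing of 1 therefore depends on the length used, while the order of the groups does not.

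**Figure D3:**
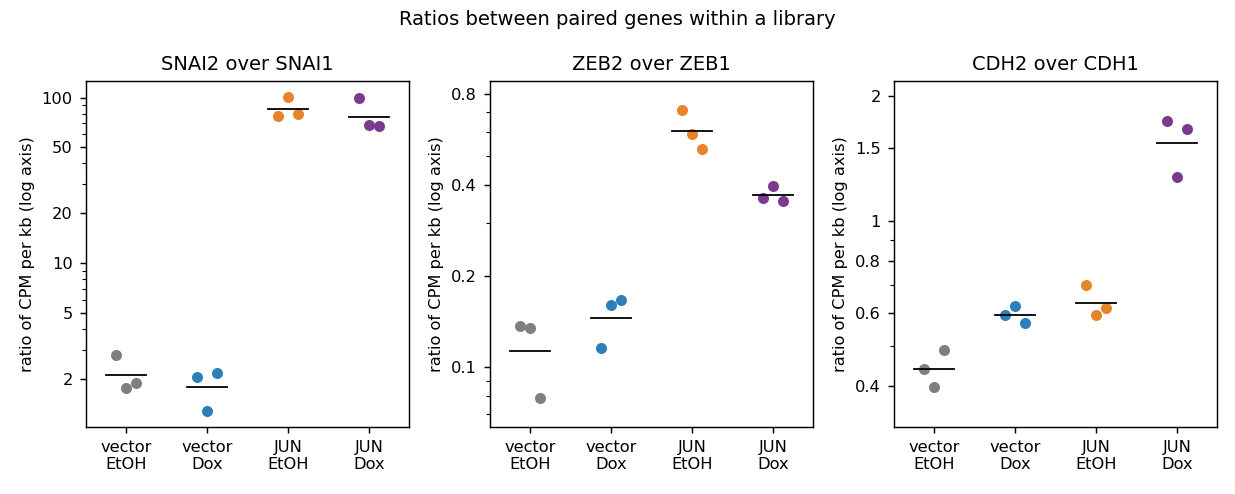
Ratio of CPM per kb of canonical transcript (log axes) for SNAI2 over SNAI1, ZEB2 over ZEB1 and CDH2 over CDH1 in the 3 libraries of each group. Points are libraries and bars geometric means. SNAI2 over SNAI1 lies above 67 in every JUN library and below 2.8 in every vector library, and CDH2 over CDH1 is highest in JUN Dox.

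CDH1, the E-cadherin that SNAI and ZEB proteins repress, moved in one group. It had 137, 121 and 130 CPM in vector EtOH, 112, 143 and 132 CPM in vector Dox, 114, 123 and 124 CPM in JUN EtOH, and 50.7, 69.1 and 56.2 CPM in JUN Dox. The JUN Dox libraries were far below the other 9, whose groups overlapped. In JUN cells CDH1 fell by 1.03 on the log2 scale on induction (SE 0.12, edgeR adjusted p 2.67e-05), and its interaction of -1.03 was called (SE 0.17, edgeR adjusted p 0.00541). In JUN EtOH, CDH1 differed from vector EtOH by -0.11 (edgeR adjusted p 0.502). In that comparison SNAI2, ZEB1 and ZEB2 were 2.96-fold to 15.6-fold higher and SNAI1 was 5.91-fold lower. The part of these factors in the level of CDH1 was not tested.

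Among the list of 25 epithelial genes and guardians of the epithelial state, 20 were tested. With JUN without induction 4 were higher and 9 lower, and with induction 4 were higher and 13 lower, with medians of -0.33 and -0.63, where 20.1% of all genes were higher and 18.9% lower without and 18.4% and 17.2% with induction. EPCAM, an epithelial adhesion molecule, had 146 ± 14.97 CPM in vector EtOH and 43.02 ± 2.15 CPM in JUN EtOH (SD, n = 3) and fell by 1.76 (SE 0.12, edgeR adjusted p 5.83e-08). CLDN7, a tight junction claudin, had log2 fold changes of -1.60 without and -2.005 with induction, both called, with reads shared with ELP5 where they overlap. The genes of this list that rose with JUN were transcription factors: ELF3 (1.30 without and 2.48 with induction), KLF5 (0.90 and 0.90) and KLF4 (0.69 and 1.44). MIR205HG without and GRHL3 with induction made up the rest. The ELF3 value of 2.48 is against vector Dox, where ELF3 had 12 to 15 reads per library.

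On induction in vector cells 4 of the 20 epithelial genes rose and 6 fell, with a median of -0.026. Of all genes, 15.6% rose and 14.4% fell there. The claudin CLDN1 rose by 1.73 and occludin (OCLN) by 0.89, while ELF3 fell by 3.44 and KLF5 by 0.88. ELF3 went from 5.13 to 8.68 CPM in vector EtOH down to 0.495 to 0.676 CPM in vector Dox, with 12 to 15 reads per library there. On induction in JUN cells 2 rose and 9 fell, against 11.2% and 10.3% of all genes. CLDN1 rose there by 1.14 and ESRP2, a splicing regulator of epithelial cells, by 0.50, and ELF3 fell by 2.27. ESRP2 shares reads with NFATC3, mean counts 1635 and 1482. Luminal markers, which are also epithelial, moved with JUN as well. Of 6 tested, 5 were lower without and 4 lower with induction, against 18.9% and 17.2% of all genes. The summed levels were 4394 to 4944 CPM in vector EtOH and 1977 to 2507 CPM in JUN EtOH. Among these markers KRT8 and KRT18 overlap each other, and KRT7 overlaps KRT86. They therefore share reads, and the sums can count reads more than once.

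The 21 other mesenchymal genes were all tested. With JUN 12 were higher and 1 lower without induction (median 0.55), and 15 were higher and 2 lower with induction (median 0.46), against the same shares of all genes. POSTN (periostin, a matrix protein) rose by 4.27 without induction, from 0.70 ± 0.212 to 13.6 ± 2.95 CPM, and FN1 (fibronectin) by 2.97, from 45.2 ± 10.9 to 354 ± 58.4 CPM (SD, n = 3; edgeR adjusted p 1.01e-07 and 1.45e-07). With induction the values were 4.79 and 2.79. The count of 1 lower gene became 0 without replicate 2 or 3 of vector EtOH or of JUN EtOH, and 2 without vector Dox replicate 1. The genes that went against the list were PMP22, which fell by 0.41 without induction, and TPM1 (tropomyosin, -1.43) and S100A4 (-0.93) with induction. S100A4 shares reads with S100A3. The fibroblast markers DCN, LUM and FAP moved with this list, with log2 fold changes of 1.56, 3.09 and 1.69 without induction and edgeR adjusted p values of 0.00103, 1.69e-06 and 1.14e-05. COL3A1 had at most 0.0998 CPM in any library, and the part of other cells in the result was not tested.

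On induction in vector cells 3 of the 21 rose and 6 fell (median -0.25), against 15.6% and 14.4% of all genes. TPM1 rose by 1.71 and the receptor kinase AXL by 1.66, while tenascin TNC fell by 1.39 and the fibronectin receptor subunit ITGA5 by 1.32. In JUN cells 4 rose and 6 fell, against 11.2% and 10.3% of all genes. They were led by AXL (1.75) and by LOX, the collagen crosslinking enzyme (-0.91), and TNC (-0.87). FSTL1 rose by 0.51 there. The 4 higher genes became 2 without JUN EtOH replicate 2 or JUN Dox replicate 1, and the 6 lower genes became 3 without any 1 of the JUN EtOH libraries or without JUN Dox replicate 2. LOX shares reads with SRFBP1, mean counts 1263 and 507.

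**Figure D4:**
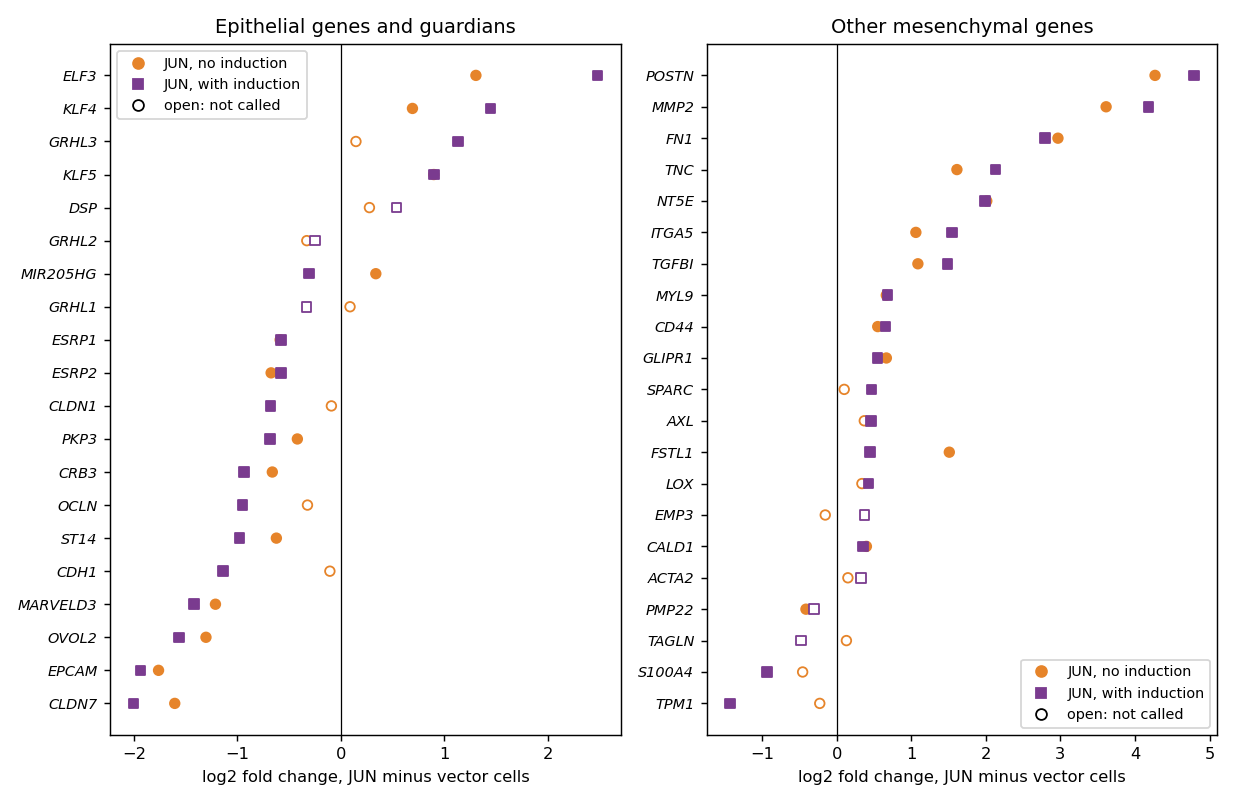
Log2 fold changes of JUN against vector cells (horizontal axes) for 20 epithelial and 21 mesenchymal genes, without induction (circles) and with induction (squares). Filled symbols passed an adjusted p under 0.05. Most mesenchymal genes lie to the right of 0, up to 4.79 for POSTN, and most epithelial genes to the left, down to -2.005 for CLDN7, with ELF3 at 2.48 on the other side.

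Of 16 other transcription factors linked to EMT, 14 were tested. With JUN 4 were higher and 3 lower without induction, against 20.1% and 18.9% of all genes, and 3 were higher and 5 lower with induction, where the shares of all genes were 18.4% and 17.2%. RUNX2, a factor of bone formation, rose by 1.89 and HMGA2, a chromatin architectural factor, by 1.48 without induction, while FOXC2 fell by 1.04 and SOX4 by 0.39. With induction HMGA2 (1.75) and RUNX2 (1.17) were again higher and FOXC2 (-1.07) and SOX4 (-0.66) again lower. HMGA2 and RUNX2 are uncertain, since they share reads with RPSAP52 (mean counts 1784 and 1039) and SUPT3H (156 and 118). The 5 lower genes with induction became 3 without vector Dox replicate 2 or JUN Dox replicate 3. On induction 1 was higher and 4 lower both in vector cells (15.6% and 14.4% of all genes) and in JUN cells (11.2% and 10.3%). The 1 higher gene in vector cells became 3 without vector Dox replicate 1 and 2 without JUN Dox replicate 3. In vector cells LEF1 rose by 0.60 and FOXC2 and TCF4 fell by 0.78 and 0.67, and in JUN cells RUNX2 and FOXC2 fell by 1.08 and 0.81.

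Of 23 other cadherins and catenins, 13 were tested. With JUN 3 were higher and 2 lower without induction (20.1% and 18.9% of all genes) and 4 higher and 4 lower with it (18.4% and 17.2%). CDH13 (T-cadherin) rose by 0.87 and the catenin CTNND1 (p120) by 0.36 without induction, and CDH24 and CDH12 fell by 0.88 and 0.72. With induction CDH13 was higher by 0.68 and JUP (plakoglobin) by 0.52, while CDH1 and CDH24 were lower (-1.14 and -0.69). CDH13 shares reads with HSBP1. On induction 1 was higher and 4 lower in vector cells (15.6% and 14.4% of all genes). CDH4 (R-cadherin) rose there by 1.18, JUP fell by 0.94 and CTNND1 by 0.35. In JUN cells 2 were higher and 4 lower (11.2% and 10.3% of all genes). CDH4 rose there by 0.94 and CDH12 by 0.40, and CDH3 (P-cadherin) fell by 0.62. The 4 lower genes in vector cells became 2 without vector EtOH replicate 1 or vector Dox replicate 3, and the 2 higher genes in JUN cells became 1 without JUN EtOH replicate 1 or 2 or without JUN Dox replicate 2.

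Of the 9 other type III and IV intermediate filament genes, SYNM was the 1 that passed the filter. It fell on induction in vector cells (-1.04) and was higher in JUN cells with induction (1.31), the same directions as VIM. The first call was lost without vector Dox replicate 3, and a call with JUN without induction was gained without vector Dox replicate 2. SYNM was named after its values were seen.

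Among 16 genes for partners and turnover of SNAI, TWIST and ZEB proteins, all tested, 6 were higher and 3 lower with JUN without induction (20.1% and 18.9% of all genes) and 5 higher and 2 lower with induction (18.4% and 17.2%). LOXL2, which stabilises SNAI1 protein, was higher by 1.33 and 0.71, and the kinase ATM by 0.77 and 0.83. EZH2 fell by 0.48 and KDM1A (LSD1, the demethylase SNAI1 recruits) by 0.30 without induction. With induction FBXL14 and KDM1A were lower (-0.29 and -0.26). FBXL14 is an F-box protein that marks SNAI and TWIST proteins for degradation. Its count rose on induction by 0.61 in vector and by 0.50 in JUN cells. LOXL2, ATM and FBXL14 are uncertain, since they share reads with LOXL2-AS1 and ENTPD4, with C11orf65 and with WNT5B, respectively. Mean counts were 1057 for FBXL14 and 1176 for WNT5B, and 761 for ATM and 500 for C11orf65. LOXL2 had 3127, against 330 for LOXL2-AS1 and 1214 for ENTPD4. On induction in vector cells 4 were higher and 2 lower (15.6% and 14.4% of all genes), with LOXL2 at 0.50, SIN3A at -0.47 and HDAC1 at -0.26. In JUN cells 3 were higher and 0 lower by edgeR (11.2% and 10.3% of all genes). There 6 of 16 had an unadjusted p under 0.05 in either direction, and 0 to 2 were lower over all settings, DESeq2 included. The counts of lower genes of this list rest on single libraries. With JUN without induction 3 became 1 without vector EtOH replicate 3 or JUN EtOH replicate 1 or 2. With induction 2 became 0 without vector Dox replicate 3 or JUN Dox replicate 2, and 1 without vector EtOH replicate 3, vector Dox replicate 2, JUN EtOH replicate 1 or JUN Dox replicate 1. In vector cells 2 became 0 without vector EtOH replicate 1 or vector Dox replicate 3, and 1 without vector EtOH replicate 2 or 3 or vector Dox replicate 1. In JUN cells 0 became 1 without vector Dox replicate 1 or 2 or JUN Dox replicate 1.

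The genes whose log2 CPM followed each member most closely over the 12 libraries were named by Pearson correlation, as a description. The 12 points fall into 4 groups, so that the values mainly reflect shared group differences. ZEB2 was followed by PRDM1 (r = 0.996) and SLC7A2 (0.988), SNAI2 by NRBP2 (0.992) and LAMB3 (0.988), and VIM by PCBP4 (0.988) and LOXL1 (0.982). ZEB1 was followed by RPSAP52 (0.990) and SUPT3H (0.989), which overlap HMGA2 and RUNX2. SNAI1 was followed by PTPRU (0.984) and FBLN1 (0.982), and CDH2 by YWHAG (0.980) and ADAMTS12 (0.971). For CDH11 (TFAP2C 0.950, EFEMP1 0.944), TWIST1 (SLU7 0.911, SDC4 0.906) and TWIST2 (DEAF1 0.880, NRGN 0.869) the likeness was lower. With Spearman's rho at most 1 of the 2 genes stayed the same for any member.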

How the data were processed

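RNA of 12 libraries (4 groups, 3 biological replicates each per the study's methods) was sequenced as single-end poly(A) reads. The authors deposited raw counts per gene, made with Cutadapt (4.2), Bowtie2 (2.3.5.1; versions from the submitters' notes) on hg19 and countOverlaps. The counted feature and the use of strand are not given in the sources used here. Of 59 genes lying within an intron of another gene, the host's count was at least that of the nested gene in all libraries for 55, so counts cover whole spans, introns included, and overlapping genes share reads.

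Counts were tested with edgeR 4.0.16 (R 4.3.3; TMM, filterByExpr with minimum count 10 and total 15, robust quasi-likelihood fit to all libraries, Benjamini-Hochberg over 14775 genes, called under 0.05). Groups came from sample titles. CPM used TMM-scaled library sizes. SE is the log2 fold change over the square root of F. At a count of 3 or fewer a gene was taken as at the floor, which covers counting error only. Symbols came from RefSeq (99.4% of IDs) and positions from GENCODE v44lift37 (GRCh37, the same assembly as hg19). The code was tested on simulated data with 200 changed genes.

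The members and lists were chosen with earlier results of these data known. A gene of the mesenchymal list is not reported here and was left out of its counts, while it stayed in the fit. From each list the 2 highest and 2 lowest called genes of at least 5 CPM mean per pairwise comparison were named, and for likeness the 2 highest correlations. Alternatives were DESeq2 1.42.0, RLE or upper-quartile factors, other count filters, only the compared libraries, a replicate block, a GC term and each library left out. Canonical transcript length, and the alternatives for the lists, CDH1, MIR205HG and the genes called in the interaction, were added after seeing the data.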

Additional observations from a re-analysis of the deposited data

Results flagged for a closer look

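Besides JUN, 4 genes of the lists responded to induction differently in JUN and vector cells (edgeR interaction, Benjamini-Hochberg adjusted over all genes). They were 2 of the 20 epithelial genes tested and 2 of the 21 mesenchymal genes, against 1.12% of all genes. CDH1 was also the 1 called of the 13 other cadherins and catenins. The lists of other EMT-linked factors, intermediate filaments and partners held no call (0 of 14, 0 of 1 and 0 of 16). CDH1 had an interaction of -1.03 (adjusted p 0.00541), TPM1 -1.20 (0.000586) and GRHL3, a grainyhead-like epithelial factor, 0.99 (0.00967), and these calls held under all 20 alternatives. GRHL3 overlaps STPG1, with mean counts of 309 and 462. FSTL1 had -1.06 (0.0196). Its call was lost without vector EtOH replicate 2 or 3, JUN EtOH replicate 1 or 2 or JUN Dox replicate 2, and its adjusted p reached 0.069 over the alternatives.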

How the results depend on the processing

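Of the 45 values of the 9 genes in 5 comparisons, 19 were called. Over the alternatives the called values kept direction and call in 384 cases, lost the call in 11 and never changed sign, and the others gained a call in 27 cases. These counts include CDH11 in JUN Dox against vector Dox, which is given only as a description. Its call was lost with only the compared libraries, and without vector Dox replicate 2 or JUN Dox replicate 2 or 3. These losses are among the 11. The number of the 9 genes called on induction in JUN cells was 1, but 2 (SNAI2 in addition to TWIST1) with RLE or upper-quartile factors, DESeq2, no filter, a mean of at least 5 CPM, only the compared libraries, and the replicate block, 4 with the GC deviation term and 3 with the block and that term. Leaving out 1 library gave 1 to 4, with 4 (SNAI2, TWIST1, TWIST2 and ZEB2) without JUN Dox replicate 1. For the interaction the number was 0, but 2 with DESeq2 (SNAI2 and VIM), 1 with the replicate block (SNAI2), 1 with the GC term (VIM) and 2 with both, and 0 to 1 with 1 library left out. The cause was not tested. In the other comparisons, leaving out 1 library gave 3 to 4 (YAP5SA in vector cells), 7 to 8 (JUN without induction) and 5 to 6 (JUN with induction, CDH11 included), and the replicate block gave 4, 8 and 6. The replicate numbers paired the samples in part at most. The deviations of same-numbered libraries correlated at -0.258 to 0.466, above 0.1 in 7 of 18 pairs. Of 12 libraries, 7 correlated best with their own number. Between JUN EtOH and JUN Dox the values were 0.283, 0.0118 and 0.466 for replicates 1, 2 and 3. Values near 0 changed sign: ZEB1 on induction in vector cells was -0.013 with upper-quartile factors and -0.014 to 0.096 with 1 library left out (-0.0095 without vector Dox replicate 3), VIM on induction in JUN cells ran from -0.19 to 0.12 (0.087 without JUN EtOH replicate 3), CDH11 there from -0.10 to 0.33, and TWIST2 in JUN Dox against vector Dox from -0.098 to 0.026. SNAI1 and CDH11 were not tested at a mean of at least 5 CPM. CDH11 held 5 to 20 reads per library, which limits its values.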
